A study of Mus musculus with 12 samples.

Results

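Epithelial and mesenchymal identity genes were followed in the developing cochlea of mice with and without Esrp1, which encodes an RNA-binding regulator of splicing in epithelia. The set held 34 genes chosen by name, 20 epithelial and 14 mesenchymal, of 22869 gene symbols in the deposited table. Each gene was read from its transcript row with the highest read total. All 34 had a row, and 33 (19 epithelial and 14 mesenchymal) had enough reads to be tested. The member left out was Grhl3, with 65 reads in all.

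The tissue was the epithelium of the cochlea, the auditory part of the inner ear, from C57BL/6 embryos at embryonic day 16.5. The 3 control embryos were Esrp1+/+ and the 3 knockout embryos were Esrp1-/-, as labelled. No other allele and no treatment was labelled in either group. Collagenase P was used after manual dissection to strip off the mesenchyme around it, per the labels' protocols, and the left and right cochlea of an embryo were pooled. Each embryo gave 2 libraries, which stand together in 1 column of counts, so that n is 3 embryos in each group.

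Epithelial cells are held in sheets by E-cadherin (Cdh1) and Epcam and carry a keratin cytoskeleton. Grainyhead-like (Grhl) and Ovol transcription factors keep that state, while Zeb, Snail and Twist factors repress epithelial genes and favour a mesenchymal state with vimentin, N-cadherin and fibronectin. Esrp genes are themselves expressed in epithelial cells and are lost when such cells become mesenchymal. In the cochlea, the duct is epithelial and lies within periotic mesenchyme.

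Zeb and Snail factors bind the E-box CAGGTG, read on either strand (CACCTG on the other). RefSeq promoter windows on GRCm38.p6, 300 bases long with 250 before and 50 after a gene's start, were at hand for 20 of the 34 genes. The E-box stood in 10 of 13 epithelial members with a window (76.9%) and in 2 of 7 mesenchymal ones, Snai1 and Sparc (28.6%), against 22.6% of all 27025 genes with a window. These are matches of letters and not measured binding. The 250 bases before the start are shown for 5 epithelial members, 5′ to 3′ on the gene's strand, with E-boxes in capitals. Krt8 and Krt18 are shown because they encode a keratin pair and sit beside each other, and Epcam, Rab25 and Ap1m2 as examples with more than 1 E-box. The positions are chr15:102004343-102004592 (minus strand) for Krt8, chr15:102027966-102028215 (plus) for Krt18, chr17:87635729-87635978 (plus) for Epcam, chr3:88548280-88548529 (minus) for Rab25 and chr9:21312334-21312583 (minus) for Ap1m2.
Krt8: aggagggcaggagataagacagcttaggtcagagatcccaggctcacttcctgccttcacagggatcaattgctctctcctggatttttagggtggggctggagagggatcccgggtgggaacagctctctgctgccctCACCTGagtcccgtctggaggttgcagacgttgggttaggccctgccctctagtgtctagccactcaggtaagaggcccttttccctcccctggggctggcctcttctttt
Krt18: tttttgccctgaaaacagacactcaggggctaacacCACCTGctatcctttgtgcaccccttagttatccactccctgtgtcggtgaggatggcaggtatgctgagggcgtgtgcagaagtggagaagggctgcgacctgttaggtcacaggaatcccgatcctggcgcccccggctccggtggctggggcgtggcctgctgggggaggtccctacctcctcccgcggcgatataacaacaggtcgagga
Epcam: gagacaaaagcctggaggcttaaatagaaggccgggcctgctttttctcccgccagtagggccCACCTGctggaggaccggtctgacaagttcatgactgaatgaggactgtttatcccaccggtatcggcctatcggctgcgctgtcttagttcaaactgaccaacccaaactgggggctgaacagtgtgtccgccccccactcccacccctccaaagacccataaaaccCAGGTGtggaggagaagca
Rab25: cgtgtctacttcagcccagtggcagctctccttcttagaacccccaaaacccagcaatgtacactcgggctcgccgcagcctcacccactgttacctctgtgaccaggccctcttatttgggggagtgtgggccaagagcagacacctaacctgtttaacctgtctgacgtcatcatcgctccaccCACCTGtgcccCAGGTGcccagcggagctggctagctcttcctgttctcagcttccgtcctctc
Ap1m2: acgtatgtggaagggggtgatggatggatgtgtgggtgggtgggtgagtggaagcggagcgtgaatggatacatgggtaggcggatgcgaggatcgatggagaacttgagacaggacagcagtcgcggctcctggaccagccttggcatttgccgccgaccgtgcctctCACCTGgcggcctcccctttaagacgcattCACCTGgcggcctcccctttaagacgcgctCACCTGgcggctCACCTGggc
In Ap1m2, 4 E-boxes stood in the 81 bases before the start. In Epcam they lay at 187 and 19 bases before it, and in Rab25 at 64 and 53. Krt8 and Krt18 held 1 each. The GRHL motif AACCGGTT was in none of the 20 windows (0.174% of all genes with one), and its looser form AACCNGTT was in that of Rab25 alone among the members (2.35% of all genes).

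Gene counts summed to 12547301 to 21568517 reads per embryo, and 14717 genes entered the test. Esrp1 fell to 33.5 ± 5.98 CPM (read counts relative to library size, scaled by TMM) in knockouts from 139 ± 50.9 in controls (SD, n = 3 each), a log2 fold change of -2.05 ± 0.26 (SE) with an adjusted p of 0.0354 by edgeR's quasi-likelihood test. That adjusted p rose to between 0.122 and 0.158 without control 3 or without any 1 of the 3 knockouts. Otic genes of the duct were abundant, among them Oc90, an otoconial protein gene (mean 1626 FPKM, counts relative to transcript length and library size), and Tecta, a tectorial membrane gene (133 FPKM). Oc90 averaged 1010 FPKM in controls and 2243 FPKM in knockouts. Every knockout was higher, as in 5.4% of all genes, and the adjusted p was 0.377 by the same test. The groups overlapped for Tecta. All 16 cochlear epithelium markers passed the filter on low counts. The embryos differed in more than genotype. Xist, which marks embryos with an inactive X chromosome, was at 1098 to 1808 CPM in the 3 controls and knockout 1 and at 0.268 and 0.200 CPM in knockouts 2 and 3, where the Y-linked Ddx3y was at 94.97 and 81.9 CPM. The summed level of 8 immediate early genes, which respond to handling and other stimuli, was 1130 CPM in control 1, 461 CPM in knockout 1 and 194 to 231 CPM in the others. Control 1 also had the lowest sum of 8 neuron markers, at 236 CPM against 608 to 972 CPM.

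No member passed the threshold. Of the 33 tested, 0 had an adjusted p under 0.05 by edgeR's quasi-likelihood test, and DESeq2 also called 0 (1.04% of all genes). Over all genes 22 were called, 0.149% (12 higher, 0.0815%, and 10 lower, 0.0679%). At an unadjusted p under 0.05 stood 2 members, Grhl1 (lower in knockouts, as 1.9% of all genes) and Acta2 (higher, 2.87%), beside 4.77% of all genes in either direction. The epithelial log2 fold changes had a median of 0.02, with 10 above 0 and 9 below. The mesenchymal ones had a median of 0.04, with 7 above and 7 below. The median over all genes was 0.00, and 50.3% of genes lay above 0. In 4 members the knockouts did not overlap the controls, as in 9.84% of all genes: Vim and Acta2 were higher in every knockout, and Grhl1 and Ovol1 lower. A share of 4 in 33 is near that background. An exact two-sided permutation test of 3 against 3 embryos cannot give less than p = 0.10, the value of each of the 4.

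**Figure D1:**
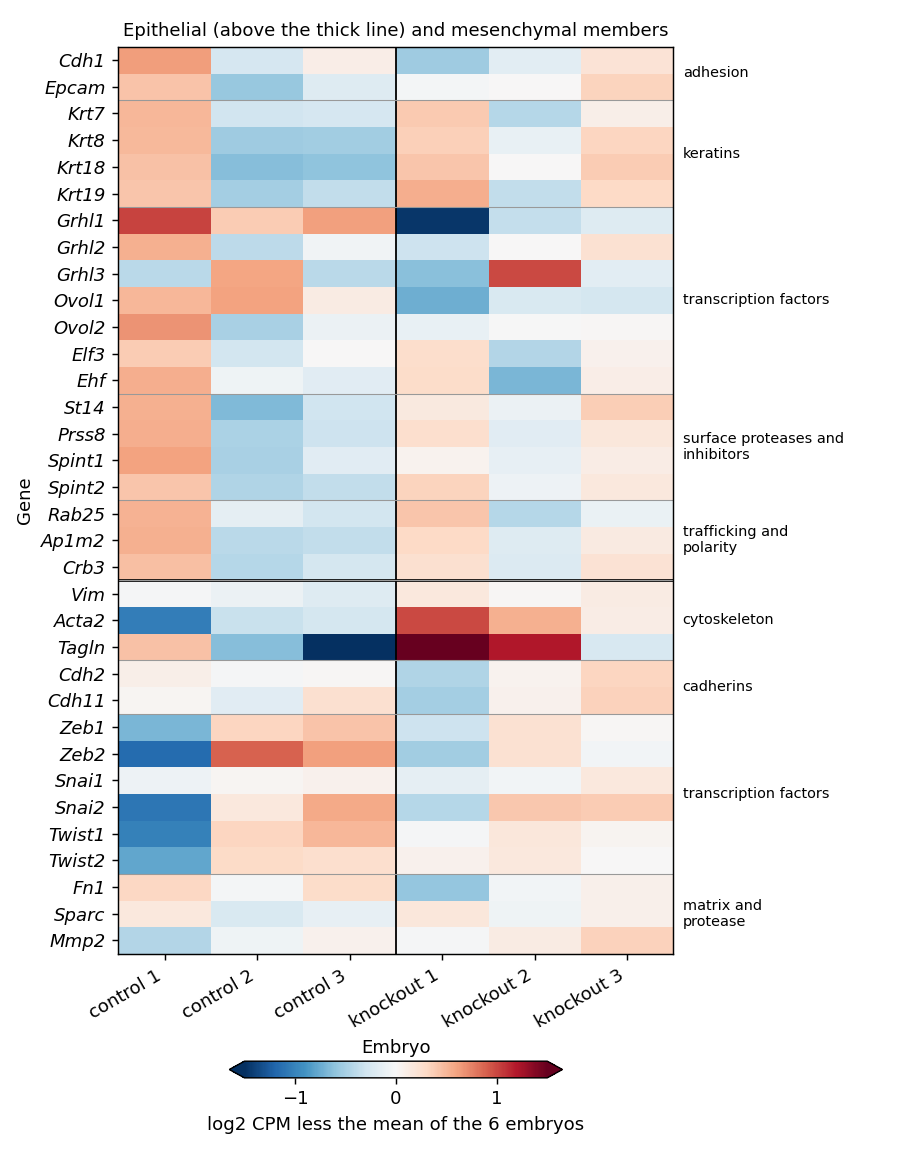
Level of each of the 34 members (rows, by role) in each of the 6 embryos (columns), as log2 CPM less the gene's mean over the embryos; the colour scale ends at the values marked by its pointed tips, and Tagln passes them. Control 1 is red through most of the epithelial rows and blue in the mesenchymal transcription factors.

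Levels between genes can be compared only per length, in the authors' deposited FPKM. The most abundant members were 2 mesenchymal genes, Sparc (mean of 6 embryos 281 FPKM), a matrix-binding glycoprotein, and Vim (267 FPKM), the intermediate filament vimentin. Their ranges over embryos overlapped. Epcam followed at 88.4 FPKM, the protease inhibitor gene Spint2 at 73.9, Krt18 at 49.7 and the matrix gene Fn1 at 42.1. Cdh1 and Krt19 stood at 24.8 FPKM each. Cdh2 (N-cadherin), at 12.9 FPKM, was below Cdh1 in every embryo, with Cdh1 at 1.62 to 2.74 times Cdh2 in controls and 1.64 to 1.82 times in knockouts. The lowest members were Grhl3 and Ovol1, at 0.087 FPKM each, and Ehf at 0.308. The dissected epithelium thus held RNA of both kinds of gene in every embryo. In bulk tissue, fewer cells of a type and less RNA per cell cannot be told apart.

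**Figure D2:**
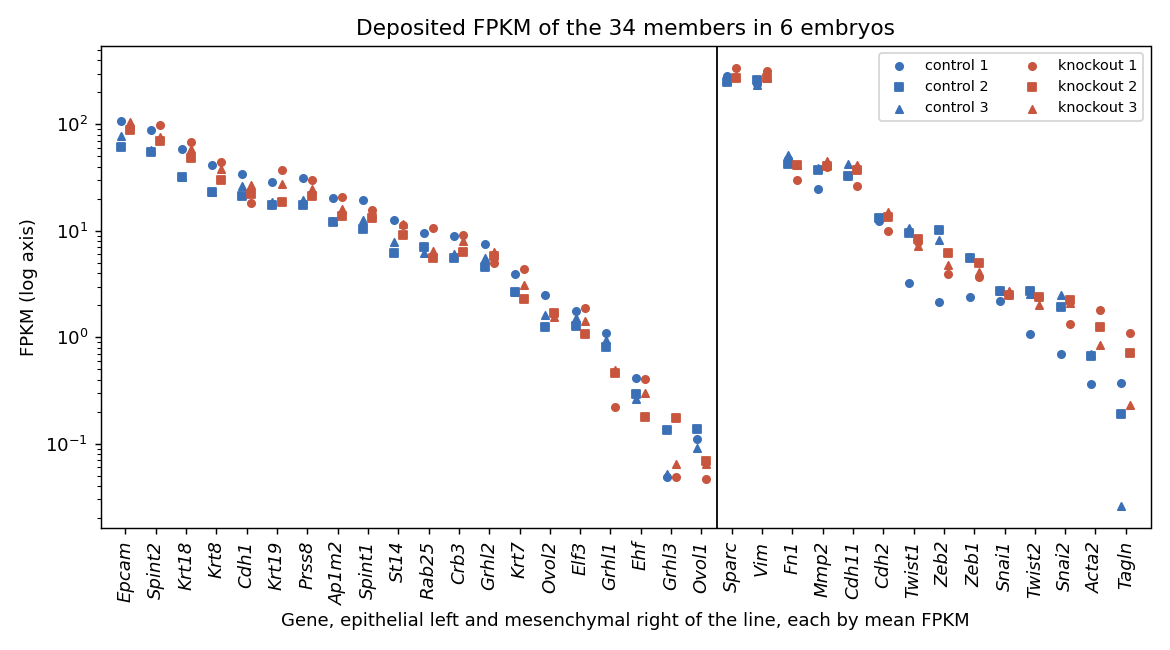
Deposited FPKM of the 34 members on a log axis, 1 point per embryo (controls blue, knockouts red, a symbol for each embryo number), epithelial members left of the line and mesenchymal members right, each side ordered by mean. Epcam and Sparc lead the 2 sides, Ovol1 and Tagln end them, and most members' control and knockout points overlap.

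Both adhesion genes differed between embryos more than between groups. Cdh1, the cadherin of adherens junctions, was at 367, 200 and 256 CPM in controls 1, 2 and 3 and at 165, 214 and 275 CPM in knockouts 1, 2 and 3. Control 1 was the highest and knockout 1 the lowest, and the other 4 embryos lay between them. Its log2 fold change was -0.33 ± 0.25 (SE, adjusted p = 0.994). Epcam, a membrane adhesion protein, was at 536, 269 and 348 CPM in controls and at 390, 399 and 502 CPM in knockouts. Control 1 was again the highest, and all 3 knockouts exceeded controls 2 and 3 (log2 fold change 0.16 ± 0.25, adjusted p = 0.994).

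The 4 keratin genes of simple epithelia, which encode intermediate filament proteins, had log2 fold changes from 0.02 (Krt7) to 0.46 (Krt18), and none passed the test. Krt8 (chromosome 15, 101996711 to 102004342, GRCm38) was at 199, 97.7 and 98.3 CPM in controls and at 181, 131 and 177 CPM in knockouts. Its partner Krt18 (102028216 to 102032026 on the same chromosome) was at 200, 94.5 and 97.4 CPM in controls and at 198, 148 and 192 CPM in knockouts. In both genes control 1 lay above every other embryo and controls 2 and 3 below every other, so the groups overlapped only through control 1. Their log2 fold changes were 0.31 ± 0.28 and 0.46 ± 0.29 (adjusted p = 0.994 each). Krt19 was highest in knockout 1, at 115 CPM, and lowest in control 2, at 55.5 CPM.

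Krt18 relative to Krt8 varied little within a group. The ratio of their FPKM was 1.42, 1.37 and 1.39 in controls and 1.55, 1.59 and 1.56 in knockouts. The groups did not overlap, and control 1 lay with the other controls (exact permutation p = 0.1, the smallest possible). This was 1 of 8 ratios looked at after the members' values were seen. In all, 3 of the 8 did not overlap. The others were the inhibitor Spint1 over the protease St14 (1.55 to 1.68 in controls, 1.26 to 1.45 in knockouts) and Grhl2 over Grhl1. For the latter, Grhl1 alone already separated the groups. How often other pairs of genes do so was not counted, so these ratios are description only.

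**Figure D3:**
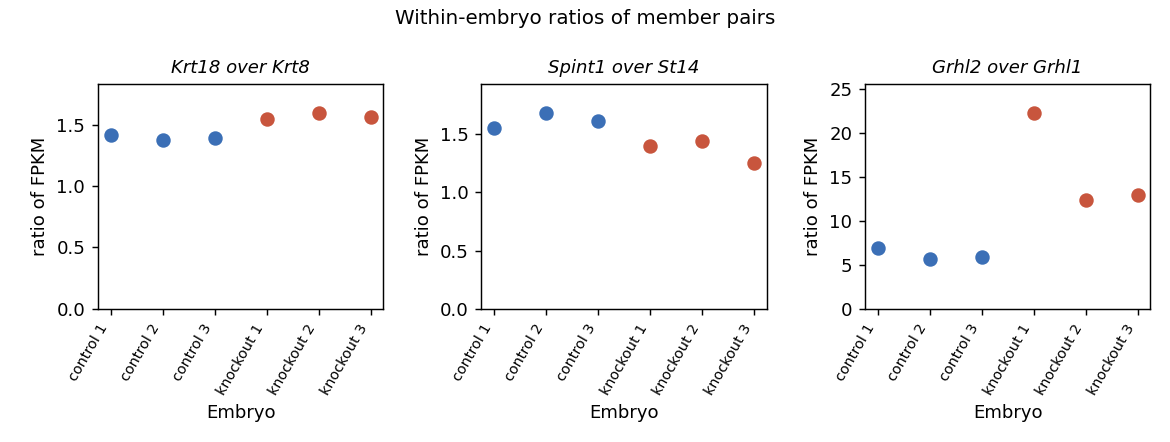
Ratio of FPKM within each embryo for the 3 of 8 pairs whose groups did not overlap, with a linear axis from 0 in each panel (controls blue, knockouts red). The knockouts lie above the controls for Krt18 over Krt8 (1.55 to 1.59 against 1.37 to 1.42) and Grhl2 over Grhl1, and below them for Spint1 over St14.

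Of the 7 epithelial transcription factors, the 6 that were tested all had log2 fold changes below 0, from -0.07 (Elf3) to -1.28 (Grhl1), and none passed the adjusted threshold (50.3% of all genes lay above 0). Without control 1, 4 of them were above 0, Grhl2 at 0.20, Ovol2 at 0.24, Elf3 at 0.11 and Ehf at 0.060. Grhl1 (chromosome 12, 24572232 to 24617391, GRCm38) encodes a grainyhead-like activator of epithelial junction genes. It was at 9.40, 5.99 and 7.11 CPM in controls and at 1.60, 3.54 and 4.003 CPM in knockouts, so every knockout was lower than every control, and knockout 1 was the lowest. The 3 controls held 414 reads and the 3 knockouts 147, a ratio of 0.430 after scaling for library size (95% interval 0.354 to 0.520, counting error only). Its log2 fold change was -1.28 ± 0.36 (SE), with an unadjusted p of 0.00664 and an adjusted p of 0.494 by edgeR's quasi-likelihood test. DESeq2 gave an adjusted p of 0.0561. Over the alternatives run the log2 fold change lay between -2.27 (with Xist as a covariate) and -0.80 (without both embryos numbered 1). With that covariate it rests mainly on knockout 1 against the controls, as only knockouts 2 and 3 had low Xist. In the authors' deposited table the 2 transcript rows of Grhl1 had log2 fold changes of -1.27 and -1.25 with FDR 0.0776 and 0.110. That table gave an FDR under 0.05 to 0 of the 39 member rows, beside 222 of 28644 rows in all (0.775%). The fit made here over transcript rows also called 0 member rows, beside 0.147% of the 19668 tested.

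Grhl2, the family member at the highest level here (5.79 FPKM against 0.674 for Grhl1 and 0.087 for Grhl3), had a log2 fold change of -0.09 ± 0.24. It was at 91.1, 47.7 and 60.4 CPM in controls and at 50.5, 62.8 and 73.3 CPM in knockouts, and the groups overlapped. Its FPKM was 5.62 to 6.84 times that of Grhl1 in controls and 12.4 to 22.2 times in knockouts. Grhl3 was not tested. It held 32 reads in controls and 33 in knockouts, a ratio of 1.25 after scaling (95% interval 0.744 to 2.10, counting error only). Its levels ran from 0.38 to 0.86 CPM in controls and from 0.30 to 1.18 CPM in knockouts. A change within that interval could go undetected at this depth, and the spread between embryos widens that limit.

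Ovol1, a zinc finger repressor of mesenchymal genes, held 47 reads in controls and 20 in knockouts. After scaling for library size this was a ratio of 0.515 (0.289 to 0.886, counting error only). Its levels were 0.877, 0.953 and 0.647 CPM in controls and 0.305, 0.483 and 0.467 CPM in knockouts, with no overlap (log2 fold change -0.95 ± 0.46, adjusted p = 0.994). Its paralog Ovol2 overlapped between groups, with 9.59 CPM in control 1 and 4.22 to 6.01 CPM in the other 5 embryos. The epithelial ETS factors Elf3 and Ehf had log2 fold changes of -0.07 and -0.20. Both turned positive with Xist as a covariate, at 0.24 and 0.18, in a fit that rests mainly on knockout 1 against the controls.

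The membrane serine proteases matriptase (St14) and prostasin (Prss8) and their Kunitz-type inhibitors Spint1 and Spint2 had log2 fold changes between -0.04 and 0.23. St14 was at 134, 58.4 and 75.4 CPM in controls and at 103, 87.4 and 120 CPM in knockouts. Spint2 was at 341, 187 and 198 CPM in controls and at 323, 243 and 286 CPM in knockouts. In both, control 1 was highest of all embryos and controls 2 and 3 were the lowest. The trafficking and polarity genes Rab25 (a recycling endosome GTPase), Ap1m2 (the basolateral sorting adaptor subunit) and Crb3 (an apical polarity protein) lay between -0.07 and 0.13 and showed no separation of the groups.

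**Figure D4:**
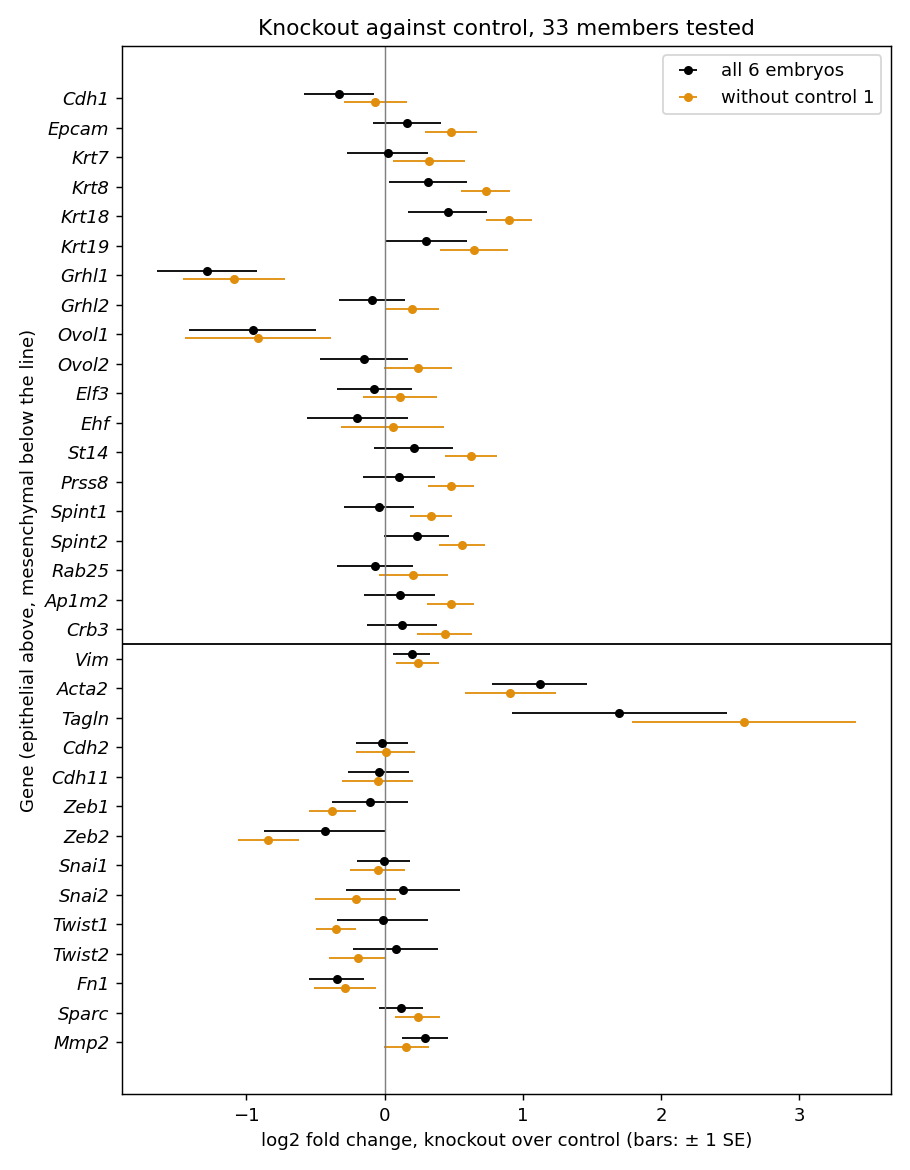
Log2 fold change, knockout over control, of the 33 members tested with bars of 1 SE, from all 6 embryos (black) and without control 1 (orange), epithelial members above the line and mesenchymal below. With all 6 embryos Grhl1 and Ovol1 lie farthest below 0 and Tagln and Acta2 farthest above, and without control 1 most epithelial points shift to the right.

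Among the mesenchymal members, the 3 cytoskeletal genes had positive log2 fold changes. Acta2, smooth muscle actin (chromosome 19, 34240336 to 34255585, GRCm38), was at 1.69, 2.81 and 2.96 CPM in controls and at 7.24, 5.26 and 3.87 CPM in knockouts. Every knockout was higher, on 144 reads in controls and 251 in knockouts (log2 difference 1.12 ± 0.35, SE). By edgeR's quasi-likelihood test its unadjusted p was 0.0106 and its adjusted p = 0.589. Across the alternatives it lay between 0.66 and 1.56, the latter with Xist as a covariate, where it rests mainly on knockout 1. Tagln, another smooth muscle gene, had 42 reads in controls and 116 in knockouts. Its levels of 1.57, 0.680 and 0.108 CPM in controls and 3.89, 2.74 and 0.934 CPM in knockouts overlapped (1.70 ± 0.78, adjusted p = 0.994). Vim was at 1071, 1015 and 946 CPM in controls and at 1202, 1097 and 1177 CPM in knockouts. The groups did not overlap, and the difference was small (log2 fold change 0.20 ± 0.14, adjusted p = 0.994). Pericytes can also express smooth muscle genes. All 5 pericyte markers tested had log2 fold changes below 0. The 6 listed summed to 238 to 277 CPM in controls and 179 to 264 CPM in knockouts. Notch3 alone made up most of each sum, at 145 to 224 CPM in controls and 125 to 190 CPM in knockouts. The part of pericytes in the Acta2 and Tagln values was not tested.

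The cadherins Cdh2 and Cdh11 had log2 fold changes of -0.02 and -0.04. Cdh2 was at 143 to 153 CPM in controls and at 106, 150 and 180 CPM in knockouts, and Cdh11 at 320 to 426 CPM and at 251, 375 and 455 CPM. In both genes knockout 1 was lowest and knockout 3 highest of the 6 embryos. Fn1 (fibronectin) was also lowest in knockout 1, with 1037, 819 and 1013 CPM in controls and 559, 816 and 883 CPM in knockouts (log2 difference -0.35 ± 0.20, adjusted p = 0.994). The matrix protease gene Mmp2 was at 184, 239 and 262 CPM in controls and at 248, 272 and 319 CPM in knockouts (0.29 ± 0.17, adjusted p = 0.994), and Sparc differed by 0.12 ± 0.16.

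The 6 repressors of the epithelial state had no separated group and log2 fold changes from -0.43 (Zeb2) to 0.13 (Snai2). Zeb2 showed the widest spread, with 51.8, 215 and 177 CPM in controls and 80.7, 136 and 112 CPM in knockouts. Both embryos numbered 1 were the lowest of their groups. Zeb1 was likewise lowest in those 2 embryos, and ran from 33.8 CPM in control 1 to 73.0 CPM in control 3. Twist1 was at 13.1, 33.2 and 37.7 CPM in controls and at 26.3, 29.9 and 27.3 CPM in knockouts, so that the knockouts lay inside the control range, as they did for Twist2. Snai2 was lowest in control 1 at 3.45 CPM and highest in control 3 at 11.1 CPM. Snai1 varied least of the 6, at 8.16 to 10.1 CPM over all embryos.

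Control 1 stood at 1 end of the set. It was the highest of the 3 controls in 18 of the 19 epithelial members tested, all but Ovol1, and in 41.7% of all genes. It was the lowest of the 3 controls in all 6 mesenchymal transcription factors and in 8 of the 14 mesenchymal members (41.2% of all genes). Vim, Tagln, Cdh2, Fn1 and Sparc were instead highest there among the controls. The median SD of log2 CPM between controls was 0.48 over the epithelial members and 0.18 over all genes, and between knockouts it was 0.26 and 0.23. The median epithelial log2 CPM less the median mesenchymal log2 CPM was 1.17 in control 1, -0.99 in control 2 and -0.77 in control 3. In knockouts 1, 2 and 3 it was 0.31, -0.60 and -0.10, all inside the range of the controls. The group means were -0.20 ± 1.19 and -0.13 ± 0.46 (SD, n = 3 each), a difference of 0.07. It rested on single embryos, at 0.71 without control 1 and -0.33 without control 2. Without control 1, all 3 knockouts lay above both remaining controls. Neuron markers (236 CPM in control 1 against 608 to 972 CPM), macrophage markers (37.5 against 76.8 to 103 CPM), melanocyte markers (219 against 72.5 to 147 CPM) and the immediate early genes (1130 against 194 to 461 CPM) set the same embryo apart. Their part in these values was not tested.

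**Figure D5:**
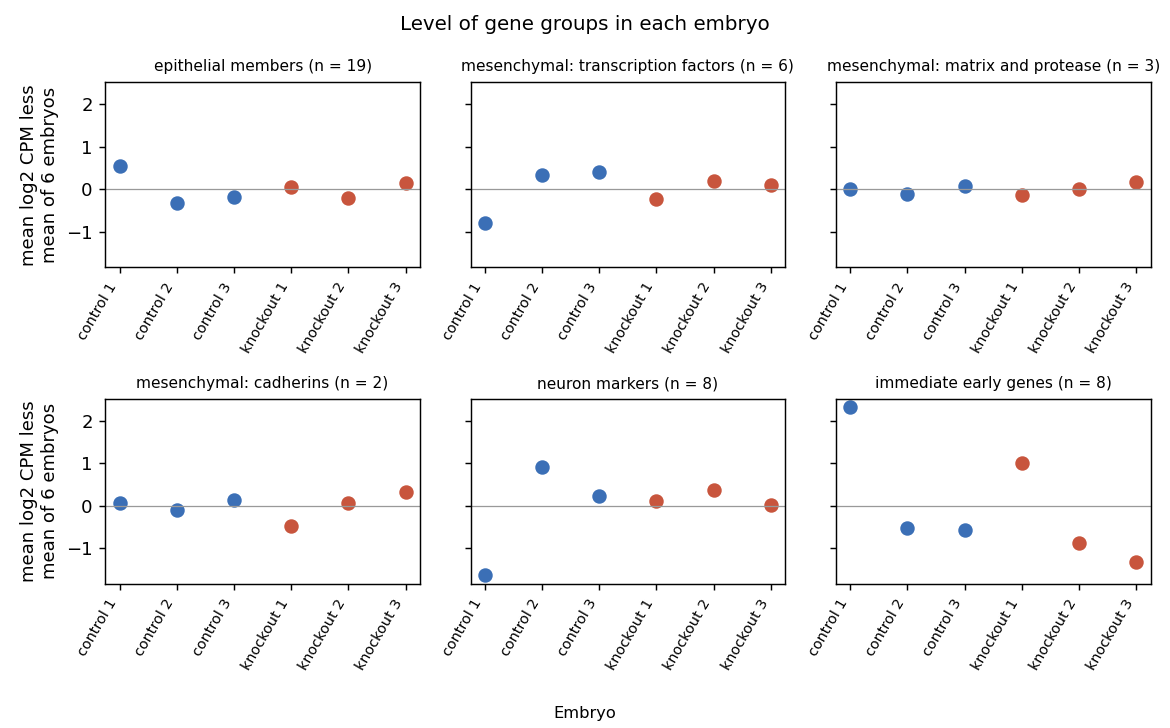
Mean over the genes of each group of log2 CPM less the gene's mean of the 6 embryos, 1 point per embryo (controls blue, knockouts red), for the epithelial members, 3 groups of mesenchymal members, neuron markers and immediate early genes. Control 1 is the highest embryo for the epithelial members and the immediate early genes and the lowest for the mesenchymal transcription factors and the neuron markers, while it lies within the other embryos for the matrix genes and cadherins.

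Without control 1, 17 of 20 epithelial members had log2 fold changes above 0 (50.8% of all genes), with a median of 0.33 against 0.00 over all genes. None was called (0.2% of all genes), and 8 had an unadjusted p under 0.05 and were higher in knockouts, as were 3.98% of all genes. Leaving out control 1, the highest control in 18 of 19 epithelial members, itself favours higher knockouts. No conclusion is therefore drawn from the 17 of 20 or from these 8. These 8 were Epcam, Krt8, Krt18, Krt19, St14, Prss8, Spint2 and Ap1m2, with log2 fold changes from 0.48 (Ap1m2) to 0.90 (Krt18), while Grhl1 was at -1.09 ± 0.37. The tally turned with the control left out: without control 2, 4 epithelial members lay above 0 and 15 below (median -0.12), and without control 3, 8 above and 12 below (median -0.07). Among the mesenchymal members, Zeb2 was without control 1 at -0.84 ± 0.22 and Twist1 at -0.35 ± 0.14, with Acta2 at 0.91 ± 0.33 and Tagln at 2.60 ± 0.81, and none was called. All 3 knockouts exceeded both controls 2 and 3 in 10 of the 19 epithelial members and in 4 of the 14 mesenchymal ones, against 14.9% of all genes. This count too leaves out the embryo that was the highest control in 18 of those 19, which favours higher knockouts. It was not made for other pairs of controls, so no conclusion is drawn from it. Without both embryos numbered 1, 159 genes were called (1.07%), and Krt18 was the only one of the 34 members among them (log2 fold change 0.82 ± 0.12, adjusted p = 0.0258, edgeR's quasi-likelihood test). Of the epithelial members, 15 of 20 then lay above 0 (48.7% of all genes), 9 of them with an unadjusted p under 0.05 (6.59%). Control 1 is left out here as well, which favours higher knockouts. In that fit all controls have high Xist and all knockouts low Xist, so genotype and sex cannot be told apart. With Xist as a covariate over all 6 embryos, Krt18 was at 0.62 ± 0.44 (adjusted p = 0.431, the same test). Only knockouts 2 and 3 had low Xist, so the knockout term of that fit rests mainly on knockout 1 against the controls.

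A further 48 epithelial genes (claudins, junction, keratin and other epithelial genes) gave a like picture. Of the 47 tested, 0 were called (0.149% of all genes), 2 were higher and 1 lower at an unadjusted p under 0.05 (2.87% and 1.9% of all genes), and the median log2 fold change was 0.05. Control 1 was the highest control in 40 of them (41.7% of all genes). The keratin gene Krt23 was at 3.51, 2.27 and 2.48 CPM in controls and at 9.53, 9.88 and 8.01 CPM in knockouts (1.74 ± 0.26, adjusted p = 0.0668). Fxyd3, a regulator of the sodium pump, was at 1.25, 0.726 and 0.862 CPM in controls and at 6.94, 3.87 and 4.14 CPM in knockouts (2.39 ± 0.38, adjusted p = 0.0896). In both genes every knockout exceeded every control, control 1 included, as in 5.4% of all genes. No other of the 47 did so, and 2 were lower in every knockout (4.44% of all genes). Without the filter on low counts both Krt23 and Fxyd3 passed the threshold (adjusted p = 0.0448 and 0.0491, edgeR's quasi-likelihood test), beside 0.167% of all genes. They also passed with DESeq2 (adjusted p = 3.97e-06 and 2.46e-05), beside 1.04% of all genes. On the lower side, Myo5b, a motor of membrane recycling, was at -0.28 ± 0.14 (adjusted p = 0.994).

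Of 45 further mesenchymal genes, 42 were tested and 0 were called. Their log2 fold changes had a median of 0.16, with 31 above 0 (50.3% of all genes lay above 0). At an unadjusted p under 0.05, 6 were higher (2.87% of all genes) and 2 lower (1.9%). The knockouts did not overlap the controls in 10, with 8 higher (5.4% of all genes) and 2 lower (4.44%). Fap, a fibroblast surface protease, was at 9.90, 9.75 and 13.2 CPM in controls and at 21.7, 19.0 and 18.3 CPM in knockouts (0.84 ± 0.19, adjusted p = 0.238). The microfibril gene Mfap4 (0.60 ± 0.14, adjusted p = 0.254) and the elastin crosslinking enzyme gene Loxl1 (0.58 ± 0.16, adjusted p = 0.495) were also higher in every knockout. DESeq2 called Fap and Mfap4 (adjusted p = 0.0153 and 0.0256), beside 1.04% of all genes. The collagen-binding proteoglycans Lum and Dcn were lower in every knockout, at -0.54 ± 0.20 and -0.34 ± 0.14 (adjusted p = 0.846 and 0.934). Control 1 was the lowest control in 28 of the 42 (41.2% of all genes). Taken up after its values were seen, Tbx18, a transcription factor of periotic mesenchyme, was at 150 CPM in control 1 and at 250 to 352 CPM in the other embryos.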

How the data were processed

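RNA-seq libraries (12) of cochlear epithelium from 6 mouse embryos were analysed, 3 control and 3 Esrp1 knockout. The deposited counts are raw reads per RefSeq transcript row and embryo, per the file headers. That both libraries of an embryo stand in 1 column was taken from the sample descriptions, which give both the same column name. FPKM per embryo, relative to transcript length and library size per the file headers, were deposited by the authors. The log2 fold changes and FDR values (adjusted p-values) quoted from the authors' deposited table come from edgeR, per the file headers and the submitters' processing notes, which also name mm10. No aligner or counter is named in the sources used here. Another 15 value columns were not used.

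For each gene symbol the row with most reads was kept (28644 rows, 22869 symbols, none blank). Rows of a gene share reads: a fit over 19668 rows called 29 and no member row. Genes passing filterByExpr (minimum count 10) were compared by edgeR 4.0.16's quasi-likelihood F test (R 4.3.3, TMM scaling) with Benjamini-Hochberg adjustment over all 14717 genes and a threshold of 0.05. Standard errors were derived from the F statistic (absolute log2 fold change divided by its root). Levels of epithelial less mesenchymal genes used log2 CPM with a prior count of 2. Ratios of summed reads, scaled for library size, carry exact 95% intervals, which cover counting error and not the spread between embryos. Reads on genes numbered 12547301 in knockout 1 and 15830640 or more in the other 5 embryos. Depth limits the precision of genes with few reads, and the spread between the 3 embryos of a group limits that of the others. Epcam, with 40995 reads, had a counting interval of 1.14 to 1.18 for its ratio but an SE of 0.25 for its log2 fold change. The procedure was checked on simulated data with large planted changes in genes with many reads. That check does not bear on small changes, on genes with few reads or on an outlying embryo. Alternatives were DESeq2 1.42.0, RLE scaling, no filter, the embryo number as a block, Xist as a covariate, each embryo left out, both embryos numbered 1 left out and, for levels, log2(FPKM + 1) and means.

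The members and lists were chosen with earlier results of these data known. Named genes are the members, Esrp1, Xist, Ddx3y and Fos, the 3 smallest unadjusted p in each direction of the other epithelial and mesenchymal lists, and the 2 most abundant of each marker list, unless said otherwise. Some genes that this rule takes are not reported here. In all, 3 list names (Adgre1, Hbb-bs and Hbb-bt) were not matched. Coordinates and promoters are RefSeq's on GRCm38.p6, the assembly of mm10.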

Additional observations from a re-analysis of the deposited data

How the results depend on the processing

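No member's direction turned, and none was called, under RLE scaling, without the filter on low counts or with DESeq2. The number of genes called moved from 22 to 6 with the embryo number as a block, 6 with Xist as a covariate, 166 with DESeq2, 159 without both embryos numbered 1, and 0 to 30 when each embryo was left out in turn (30 without control 1, 13 and 0 without controls 2 and 3, and 12, 0 and 4 without knockouts 1, 2 and 3). The causes were not tested. The number of epithelial members called was 1 (Krt18) without both embryos numbered 1, and 0 in every other fit run. Esrp1 lost its call under the block (adjusted p = 0.134) and with Xist (-2.36, adjusted p = 0.0806). Whether the embryo numbers pair the embryos was not tested. Same-numbered deviations correlated at 0.08, 0.18 and 0.03, and those of different numbers at -0.22 to 0.16. Knockouts 1 and 2 correlated best with the control of their own number. Control 1 instead correlated best with knockout 3 (0.11), and control 3 with knockout 2 (0.16). Under the block Spint1 (0.032) and Twist1 (0.10) turned positive. With Xist, Elf3 (0.24), Ehf (0.18), Spint1 (0.014) and Rab25 (0.39) turned positive and Snai2 (-0.52) negative. The knockout term of the fit with Xist rests mainly on knockout 1 against the controls, since only knockouts 2 and 3 had low Xist. Without both embryos numbered 1, Cdh1 (0.091), Grhl2 (0.32), Ovol2 (0.27), Spint1 (0.31), Cdh2 (0.18), Cdh11 (0.15) and Snai1 (0.0066) turned positive and Twist2 (-0.19) negative. With each embryo left out, 19 members turned in at least 1 fit, over these ranges of log2 fold change: Ap1m2 -0.057 to 0.48, Cdh11 -0.25 to 0.15, Cdh2 -0.21 to 0.15, Crb3 -0.041 to 0.43, Ehf -0.41 to 0.060, Elf3 -0.24 to 0.11, Epcam -0.038 to 0.48, Grhl2 -0.28 to 0.20, Krt7 -0.19 to 0.32, Ovol2 -0.39 to 0.24, Prss8 -0.086 to 0.48, Rab25 -0.34 to 0.21, Snai1 -0.10 to 0.047, Snai2 -0.21 to 0.50, Spint1 -0.25 to 0.33, St14 -0.022 to 0.63, Twist1 -0.35 to 0.26, Twist2 -0.19 to 0.25 and Zeb1 -0.38 to 0.089. The difference in epithelial less mesenchymal level, 0.07 with all embryos, ran from -0.33 without control 2 to 0.71 without control 1. The SD of that level was 1.19 between controls and 0.46 between knockouts. Ovol1, Tagln and Grhl3 rest on 67, 158 and 65 reads, which limits their precision.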

Other observations

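Markers of other cell types were present in every embryo, and 0 of these lists' tested genes were called by edgeR's quasi-likelihood test. The 6 melanocyte markers all had log2 fold changes below 0 (median -0.72), 4 of them at an unadjusted p under 0.05, beside 1.9% of all genes that were lower at that p. Dct, an enzyme of melanin synthesis, was at 109, 61.6 and 73.5 CPM in controls and at 69.0, 31.1 and 31.3 CPM in knockouts (-0.89 ± 0.34, adjusted p = 0.860). Knockout 1 lay inside the control range. The 6 glial markers were below 0 as well (median -0.32), and Fabp7, a fatty acid-binding protein of glial cells, ranged from 48.6 CPM in control 1 to 261 CPM in control 2. The neurofilament genes Nefl and Nefm were at 21.4 and 21.7 CPM in control 1, against 130 to 207 CPM and 146 to 284 CPM in the other embryos. All 6 macrophage markers were above 0 (median 0.35), and C1qa, a complement gene, was at 5.45 CPM in control 1 against 11.1 to 17.2 CPM. The endothelial genes Emcn and Cdh5 were highest in control 2, at 113 and 112 CPM. Hba-a1 and Hba-a2 had identical counts in every embryo, so their reads cannot be told apart here. Fos, an immediate early gene, was at 153 CPM in control 1, 64.6 CPM in knockout 1 and 1.00 to 7.27 CPM in the other 4 embryos.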
